A study of Gallus gallus with 6 samples.

Results

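The collagen genes are the family whose products wind around each other in threes to build the fibrils, meshes and filaments outside cells. They were taken as all protein-coding genes of the RefSeq annotation of the chicken assembly GRCg7b whose symbol has the form COL, a number, A and a number. This gave 41 genes, of 17839 protein-coding genes on the 41 chromosomes that hold peaks. Of 45 collagen chain symbols looked for, COL5A3, COL11A2, COL6A4 and COL6A5 were not found under that name in the table used here. The 41 genes lay on 16 chromosomes, with 6 each on chromosomes 2 and 7 and 5 on chromosome 3. Their median length was 79249 bp, against 12080 bp for all protein-coding genes, and ranged from 2938 bp for COL2A1, as annotated, to 299717 bp for COL25A1.

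Accessible chromatin was profiled with ATAC-seq, in which the transposase Tn5 inserts into DNA free of nucleosomes, in abdominal fat of 6 chickens. All were birds of the NEAUHLF population, known as broilers bred in opposite directions for abdominal fat, and 3 came from the line labelled FL and 3 from the line labelled LL. Each library held the tissue of 1 bird, no treatment is named in the labels, and age and sex are not stated there. Each library was deposited as 1 list of peaks.

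In fat, collagens surround each adipocyte with a basement membrane of type IV and a coat of type VI filaments, and fill the septa with fibrils of types I, III and V. Stromal fibroblasts and adipocyte progenitors make most of the fibrillar chains, whereas adipocytes and endothelial cells also lay down basement membrane. Each chain is hydroxylated and folded in the endoplasmic reticulum, exported, trimmed and cross-linked, and is later cleared by metalloproteinases.

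Peaks numbered 58060, 32066 and 23188 in the FL lists, in replicate order, and 73410, 23316 and 15628 in the LL lists. Because the lists differ so much in length, the main counts are also given with every list reduced to its 15628 peaks of highest −log10 q, called equal lengths. Of 6 adipocyte markers (ADIPOQ, PLIN1, FABP4, PPARG, LPL and CEBPA), 6, 6 and 5 had a peak within 1 kb of a gene end in FL and 6, 6 and 4 in LL. Of 8 fibroblast markers, 7, 4 and 4 had one in FL and 8, 3 and 3 in LL. In whole tissue, fewer cells of a type and less accessible DNA per cell cannot be told apart. Fold enrichment is the authors' value for each peak over its local background within 1 library, and it is used here to describe peaks, not to compare libraries. Positions are in GRCg7b, and gene ends are named by coordinate because the table gives no strand.

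Collagen gene ends held peaks in fewer genes than coding genes at large in 4 of the 6 libraries, and in all 6 at equal lengths. A peak within 1 kb of either end, here an end peak, was present at 29, 18 and 19 of the 41 collagen genes in FL and at 31, 11 and 10 in LL. These are 70.7%, 43.9% and 46.3% in FL and 75.6%, 26.8% and 24.4% in LL. For all coding genes the shares were 69.5%, 56.6% and 54.7% in FL and 72.3%, 48.6% and 41.5% in LL. FL replicate 1 and LL replicate 1, which have the longest lists, stood at the level of all coding genes, and the other 4 libraries stood under it.

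The lines overlapped in this share. The mean was 53.7% ± 14.8 (SD, n = 3) in FL and 42.3% ± 28.9 (SD, n = 3) in LL, and the difference of 11.4 percentage points was smaller than the spread within either line. Without LL replicate 1 the difference was 28.0 points. At equal lengths 9, 11 and 15 collagen genes kept an end peak in FL and 8, 8 and 10 in LL. FL then averaged 28.5% ± 7.45 (SD, n = 3) and LL 21.1% ± 2.82 (SD, n = 3), which differ by 7.32 percentage points. All coding genes stood at 50.5%, 47.9% and 50.1% in FL and at 49.3%, 41.3% and 41.5% in LL at that length, above the collagen genes in each library.

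**Figure D1:**
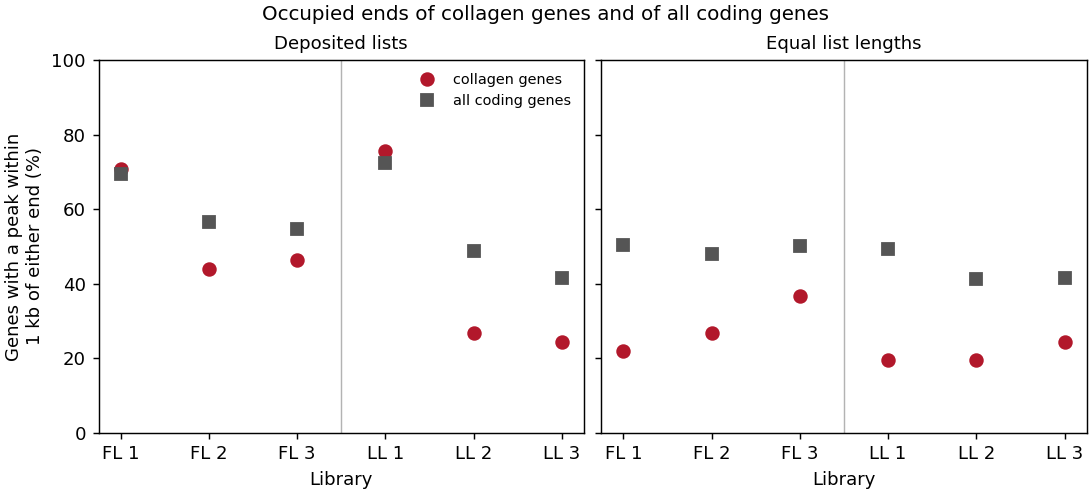
Share of genes with a peak within 1 kb of either annotated end (y axis, %) in each library (x axis), for the 41 collagen genes (circles) and all 17839 coding genes (squares), with the deposited lists on the left and equal lengths on the right. Collagen genes reach 70.7% and 75.6% in the libraries with the longest lists and lie below all coding genes in each library at equal lengths.

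The collagen genes divided into a small set with an end peak everywhere, a set with none, and a broad middle. An end peak in all 6 libraries was found at 7 of 41 genes (17.1%), while 35.7% of all coding genes passed that rule. At equal lengths it was found at 5 genes (12.2%, against 30.8%), which were COL4A2, COL4A3, COL24A1, COL26A1 and COL28A1. No library had one at 10 genes (24.4%), close to the 22.8% of all coding genes. At equal lengths 22 genes (53.7%) had none, against 37.3% of coding genes. One library alone had one at 1 gene, 2 libraries at 8, 3 at 5, 4 at 6 and 5 at 4. For 7 of these 8 genes (17.1% of the family, against 6.87% of coding genes) the libraries were FL replicate 1 and LL replicate 1. LL replicate 1 had an end peak at each of the 31 genes that had any, and FL replicate 1 lacked it at COL27A1 and COL6A1. Without these 2 libraries, the same 7 genes kept an end peak in every library and 18 genes (43.9%) had none, against 34.6% of coding genes.

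Collagen end peaks also ranked lower within their lists. Ranked by −log10 q, the median position of the best end peak per collagen gene was the top 32.3%, 44.4% and 46.1% of the list in FL and the top 36.0%, 32.2% and 48.8% in LL. Over all coding genes with an end peak it was the top 10.9%, 18.8% and 24.3% in FL and the top 9.87%, 27.4% and 29.6% in LL. The collagen median thus lay further down the list in each library.

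**Figure D2:**
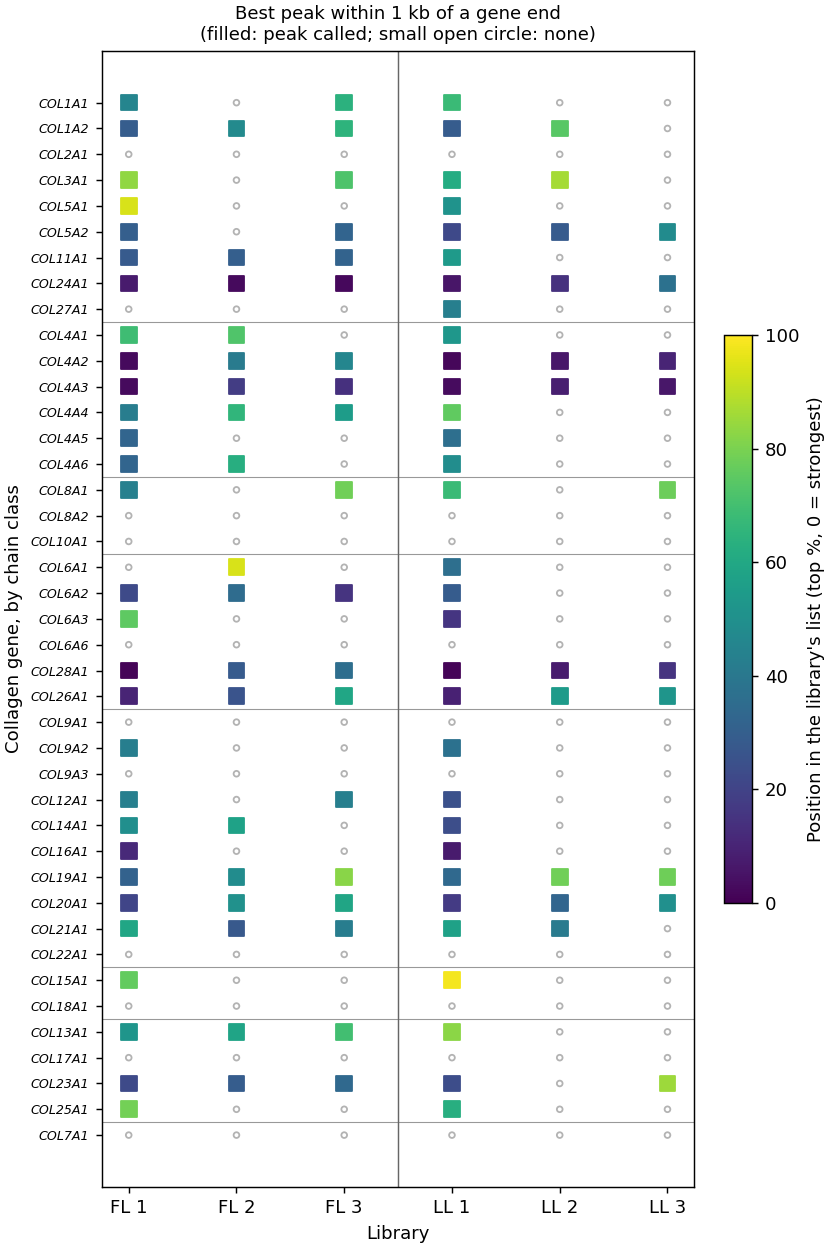
Best peak within 1 kb of either end of each collagen gene (rows, by chain class) in each library (columns), coloured by its position in that library's list ranked by −log10 q (0 is the strongest), with a small open circle where no peak was called. In 7 rows all 6 libraries are filled, among them COL4A2, COL4A3 and COL24A1, and 10 rows are empty.

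Fibrillar chains form the cross-banded fibres that bear tension. COL1A1 and COL1A2 encode both chains of type I collagen, the main fibril of connective tissue. COL1A2 (chromosome 2, 23476066 to 23515037) had peaks reaching within 1 kb of its lower-coordinate end in 5 libraries. The fold enrichments were 3.74, 3.25 and 4.05 in FL and 4.72 and 3.04 in LL replicates 1 and 2, with none in LL replicate 3. These peaks did not share a position. Their summits lay at -6, -924 and -1029 bp from that end in FL and at -73 and 435 bp in LL replicates 1 and 2. COL1A1 (chromosome 27, 2738203 to 2755475) had one at its lower-coordinate end in FL replicates 1 and 3, at 3.28 and 3.90, and in LL replicate 1, at 3.20. Neither gene had a peak of high rank at an end: the best was the top 28.9% of the list for COL1A2 and the top 45.5% for COL1A1. Beside COL1A2, in the flank of its lower-coordinate end, 2 regions were occupied in all 6 libraries. The nearer one, at 23462575 to 23463579, had fold enrichments of 5.72, 4.90 and 6.56 in FL and 6.66, 4.24 and 4.10 in LL. These values exceed that of the best COL1A2 end peak in each of the 5 libraries that have one.

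COL3A1 and COL5A2 lie next to each other on chromosome 7, with 6435 bp between them. COL3A1 encodes type III collagen, which joins type I in the fibrils of soft tissues, and COL5A1 and COL5A2 encode type V chains, which start fibril assembly. COL5A2 (558140 to 664771) had a peak at its lower-coordinate end at 4.31-fold in FL replicate 1 and 7.09-fold in FL replicate 3. In LL replicates 1 to 3 it was 5.97-, 3.30- and 3.06-fold. A separate peak in LL replicate 2, with its summit 883 bp inside the gene, was stronger, at 4.37-fold. FL replicate 2 had no peak within 1 kb of that end, so the gene was occupied in 2 FL and 3 LL libraries. COL3A1 (671206 to 805182) had weaker peaks at its higher-coordinate end, at 2.63-fold in FL replicate 1, 4.65-fold in FL replicate 3, and 3.54- and 2.95-fold in LL replicates 1 and 2. COL5A1 on chromosome 17 had an end peak in FL replicate 1, at 2.34-fold, and in LL replicate 1, at 4.31-fold.

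These fibrillar genes held several accessible regions between their ends. COL5A2 held 13, 3 and 4 regions inside the gene in FL and 17, 4 and 2 in LL. COL3A1 held 13, 4 and 1 in FL and 14, 1 and 0 in LL. COL5A1 held 6, 2 and 4 in FL and 15, 2 and 2 in LL. In each of these 3 genes replicate 1, which has the longest list of its line, had the highest number, and the lines overlapped. At equal lengths COL5A2 held 2, 1 and 2 in FL and 2, 3 and 2 in LL, COL5A1 held 2, 1 and 2 in FL and 2, 1 and 2 in LL, and COL3A1 held 1 in FL replicate 3 alone. COL27A1, a fibrillar chain known from cartilage, had 17, 0 and 4 regions inside it in FL and 21, 6 and 0 in LL, and an end peak in LL replicate 1 only. COL1A1 held 1, 0 and 0 in FL and 3, 0 and 0 in LL, and COL1A2 held 2, 0 and 0 in FL and 3, 0 and 0 in LL. Both type I genes are short among the collagens, at 17273 and 38972 bp. Per 100 kb of gene, the mean over the 6 libraries was 3.86 for COL1A1 and 2.14 for COL1A2. It was 4.11 for COL3A1, 4.02 for COL5A1, 6.72 for COL5A2 and 6.27 for COL27A1.

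Regions occupied in all 6 libraries were found inside both type V genes. In COL5A2 the region at 606388 to 607492 had fold enrichments of 5.65, 2.98 and 5.06 in FL and 8.20, 4.33 and 3.74 in LL. Outside COL5A2, the region at 522749 to 523959 had 4.93, 7.45 and 13.3 in FL and 7.79, 5.12 and 3.07 in LL. COL5A1 had 2 such regions inside it, at 8065811 to 8067051 and at 8117285 to 8117783 on chromosome 17. The first had 4.66, 3.84 and 5.18 in FL and 7.21, 3.56 and 2.88 in LL. All 3 of these inside regions were thus called in all 6 deposited lists, the shortest included.

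**Figure D3:**
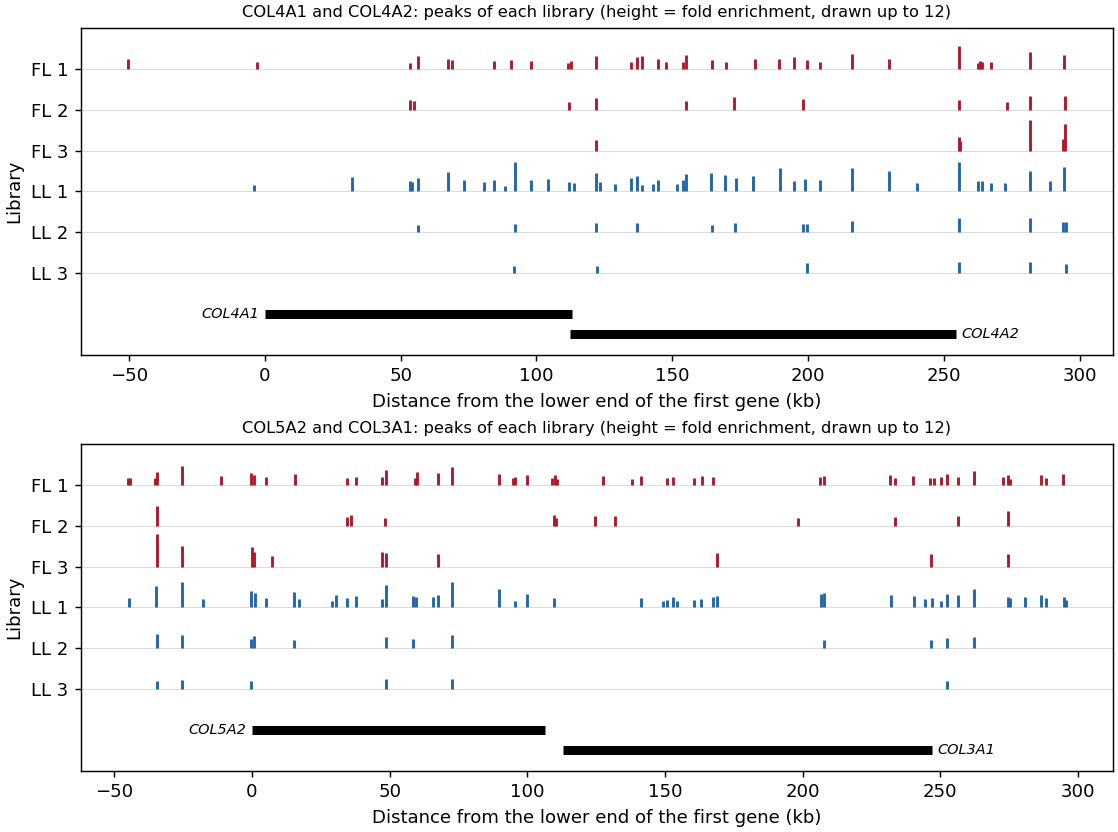
Peaks of each library (rows) along the loci of COL4A1 and COL4A2 (top) and of COL5A2 and COL3A1 (bottom), with distance from the lower end of the first gene in kb on the x axis and bar height giving the authors' fold enrichment, drawn up to 12. The first locus held 35, 11 and 6 peaks in FL and 45, 13 and 6 in LL, and a few positions, such as that just beyond COL4A2, recur in all 6 rows.

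COL24A1, a fibrillar chain known from bone and cornea of the mouse, had a peak near its higher-coordinate end in all 6 libraries. The fold enrichment was 6.85, 7.13 and 13.2 in FL and 9.22, 4.98 and 3.19 in LL, and the position was the top 7.40%, 2.71% and 2.16% of the lists in FL and the top 5.84%, 14.2% and 37.3% in LL. The summit lay nearer to the end of the neighbouring gene ZNHIT6 than to that of COL24A1 in 6 of 6 libraries, with a median distance of 61.5 bp to ZNHIT6, whose end is 908 bp from that of COL24A1. COL2A1, the main chain of cartilage fibrils, had no end peak and no inside region in any library, though its annotation here covers 2938 bp only.

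COL11A1, which encodes a chain of cartilage fibrils that limits their diameter, was 1 of the genes with more FL than LL libraries. Its lower-coordinate end (chromosome 8, 10936481) had a peak at 5.38-, 4.21- and 7.62-fold in FL and at 4.95-fold in LL replicate 1, with none in LL replicates 2 and 3. At equal lengths 2 FL libraries and no LL library kept it. Inside the gene the lines overlapped, with 2, 3 and 1 regions in FL and 0, 0 and 3 in LL. At equal lengths COL11A1 held 0, 1 and 0 regions inside it in FL and 0, 0 and 3 in LL. Of 5 cartilage markers (SOX9, ACAN, MATN1, MATN3 and HAPLN1), 3, 2 and 3 had an end peak in FL and 4, 0 and 0 in LL, and MATN1 had none in any library. ACAN and MATN3 had end peaks in the same 4 libraries as COL11A1, SOX9 in 3 of them and HAPLN1 in LL replicate 1 alone. Those 4 libraries were also the ones with an end peak at the fibroblast marker FBN1, the smooth muscle marker ACTA2 and the myeloid marker SPI1. No other marker listed for these cell types had that pattern. The fibroblast markers DPP4, MFAP5 and TWIST1 and the myeloid marker IRF8 had an end peak in all 6 libraries. The smooth muscle marker MYH11 had none, and the rest had other sets of libraries. At equal lengths MATN3 kept an end peak in 3 FL libraries, ACTA2 and SPI1 each in 2 and ACAN and FBN1 in none, and the part of other cell types was not tested.

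Basement membrane chains of type IV form the sheet on which adipocytes and endothelial cells rest. In replicate 1 of either line all 6 of these genes had an end peak, against 5 and 3 in the other FL libraries and 2 and 2 in the other LL libraries. At equal lengths 2, 2 and 3 had one in FL and 2, 2 and 2 in LL. They lie in 3 pairs. COL4A1 and COL4A2, the chains present in nearly every basement membrane, overlap by 901 bp on chromosome 1, COL4A4 and COL4A3 overlap by 19210 bp on chromosome 9, and COL4A5 and COL4A6 are 413 bp apart on chromosome 4.

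The end that COL4A1 and COL4A2 share had only modest peaks. They were called in FL replicates 1 and 2, at 2.79- and 2.91-fold, and in LL replicate 1, at 3.54-fold, and in none of the other 3 libraries. The opposite end of COL4A2 (chromosome 1, 139061817) had a peak in all 6 libraries, at 8.65-, 3.66- and 5.05-fold in FL and at 10.9-, 5.36- and 4.10-fold in LL. Its position was the top 2.64%, 41.1% and 46.1% in FL and the top 1.88%, 6.0% and 9.77% in LL. The summits lay a median of 1129.5 bp beyond the gene, in the gap of 3568 bp to RAB20, and none was nearer to RAB20. Inside, COL4A2 held 17, 4 and 1 regions in FL and 23, 6 and 2 in LL, and COL4A1 held 7, 2 and 0 in FL and 12, 2 and 1 in LL. The COL4A2 mean of 8.83 was the highest of the family, carried by both replicates 1. Per 100 kb of gene its mean was 6.22, below those of COL6A1 (6.92), COL5A2 (6.72) and COL27A1 (6.27). In FL replicate 2 the highest number was that of COL25A1, with 7, followed by COL4A3, with 6. In FL replicate 3 it was 4, held by COL4A3, COL5A1, COL5A2 and COL27A1. In LL replicate 3 it was 3, held by COL11A1 and COL14A1. At equal lengths COL4A2 held 4, 3 and 0 in FL and 4, 3 and 2 in LL. A region inside COL4A2 at 138929004 to 138929802 was occupied in all 6 libraries, at 4.94-, 4.42- and 4.0-fold in FL and at 6.77-, 3.51- and 2.65-fold in LL.

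COL4A3 and COL4A4 encode chains best known from the filter of the kidney glomerulus. The higher-coordinate end of COL4A3 (chromosome 9, 9099569) had a peak in all 6 libraries, at 9.41-, 4.56- and 8.79-fold in FL and 11.4-, 5.19- and 4.93-fold in LL. Here too the summits lay nearer to another gene: in 6 of 6 libraries they were closer to the end of MFF, 1240 bp away, at a median distance of 91 bp. COL4A4 had a peak at its higher-coordinate end (9039530) at 4.54-, 3.22- and 5.44-fold in FL and at 3.74-fold in LL replicate 1, and none in LL replicates 2 and 3. Inside, COL4A3 held 4, 6 and 4 regions in FL and 3, 1 and 0 in LL. COL4A4 held 2, 2 and 2 in FL and 1, 0 and 0 in LL. The genes overlap, so a region can count for both. The lines did not overlap in these inside numbers. The share of coding genes with such a split was not counted, so it is not read as a difference between the lines. At equal lengths COL4A3 held 1, 1 and 1 inside regions in FL and 0, 1 and 0 in LL, and COL4A4 held 0 in each library. With regions at the ends of and around the gene added, the deposited lists gave COL4A3 9, 11 and 8 in FL and 9, 5 and 3 in LL. For COL4A4 they gave 9, 9 and 7 in FL and 7, 2 and 1 in LL. By that number the lines overlapped or met at both genes. COL4A2, COL24A1 and COL4A3 had the best median positions of end peaks in the family, at the top 7.88%, 6.62% and 7.41%.

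Type VI collagen forms beaded filaments around cells and is abundant in the coat of adipocytes. COL6A1, COL6A2 and COL6A3 encode its 3 main chains. COL6A2 (chromosome 7, 6816273 to 6842300) had a peak at its lower-coordinate end at 4.16-, 3.77- and 8.71-fold in FL and at 4.35-fold in LL replicate 1, with none in LL replicates 2 and 3. At equal lengths all 3 FL libraries and no LL library kept it, a pattern of 1 collagen gene (2.44%), against 0.762% of coding genes. With peaks under 178 bp left out of the deposited lists, 2 FL libraries and 1 LL library had an end peak at COL6A2. COL6A1 (6774297 to 6795974) had peaks at its lower-coordinate end in FL replicate 2, at 2.29-fold, and LL replicate 1, at 2.57-fold, and at its other end in LL replicate 1, at 5.03-fold. Between these 2 genes, which are 20299 bp apart, a region at 6804096 to 6804850 was occupied in all 6 libraries at 3.22-, 3.68- and 3.64-fold in FL and 4.27-, 4.02- and 2.48-fold in LL.

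COL6A3, whose product is also the source of the endotrophin fragment in mouse and human, had an end peak in FL replicate 1 and LL replicate 1. This count depends on the window. The region at 4933952 to 4935446, beyond the higher-coordinate end of COL6A3 at 4933213, was occupied in all 6 libraries, but only in LL replicate 1 did the peak reach within 1 kb of the gene. Its fold enrichments were 4.19, 3.42 and 4.58 in FL and 5.31, 3.29 and 2.44 in LL. COL6A6, a further type VI chain, had neither an end peak nor an inside region.

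COL28A1 and COL26A1, grouped with the filament chains here, had an end peak in all 6 libraries. The COL28A1 peak (chromosome 2, 24679468) was the best-ranked collagen end peak in the 2 longest lists, at 12.7-fold in FL replicate 1 and 15.6-fold in LL replicate 1. It was 4.45- and 6.79-fold in the other FL libraries and 6.03- and 4.20-fold in the other LL libraries. MIOS ends 141 bp away, and 2 of 6 summits lay nearer to it. The COL26A1 peak (chromosome 19, 3997160) was 7.42-, 4.54- and 4.99-fold in FL and 9.27-, 3.75- and 3.29-fold in LL. IFT22 ends 139 bp from it, and 1 of 6 summits lay nearer to that gene.

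Among the fibril-associated chains, which sit on the surface of fibrils, COL19A1 and COL20A1 had an end peak in all 6 libraries. At COL19A1 (chromosome 3, 82765917) it was 5.16-, 3.60- and 4.04-fold in FL and 6.48-, 3.31- and 2.88-fold in LL, with no other coding gene's end nearer than 23381 bp. Its position was the top 31.1%, 48.2% and 82.4% in FL and the top 33.8%, 78.4% and 77.9% in LL. At equal lengths 1 FL library and 1 LL library kept it. COL19A1 also had a region inside it in all 6 libraries, at 9.0-, 5.22- and 5.57-fold in FL and 10.8-, 6.72- and 4.92-fold in LL. At COL20A1 (chromosome 20, 9164833) the end peak was 5.56-, 3.41- and 4.87-fold in FL and 8.18-, 4.54- and 3.26-fold in LL. LOC419242 ends 1345 bp from it, and no summit lay nearer to that gene. COL9A1 and COL9A3, chains of the cartilage collagen IX, and COL22A1, known from the junction of muscle and tendon, had no end peak in any library. COL9A2, the other chain of collagen IX, had one in FL replicate 1, at 2.88-fold, and in LL replicate 1, at 3.38-fold.

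The multiplexins COL15A1 and COL18A1 encode chains of basement membrane zones, and COL18A1 is the source of endostatin. COL15A1 had end peaks only in FL replicate 1, at 3.19-fold, and LL replicate 1, at 2.53-fold. Inside it, however, the region at 55533913 to 55534487 on chromosome 2 was occupied in all 6 libraries, at 9.90-, 6.78- and 14.1-fold in FL and at 12-, 6.18- and 4.74-fold in LL. Its position was within the top 12.7% of each list, from the top 6.57% in FL replicate 3. COL18A1 had no end peak in any library and 3, 0 and 1 inside regions in FL and 4, 0 and 0 in LL.

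Chains of skin, epithelia and cornea were among those without an end peak. COL7A1, the anchoring fibril of skin, COL17A1, a hemidesmosome chain of epithelia, COL10A1 of hypertrophic cartilage and COL8A2 of the corneal endothelium had none in any library. COL7A1 also had no region inside it, and COL8A2 had 1, 0 and 0 in FL and 5, 0 and 0 in LL. COL8A1, the partner chain of COL8A2, had a region inside it in all 6 libraries at 5.34-, 4.06- and 9.37-fold in FL and 12.3-, 4.80- and 3.06-fold in LL. COL13A1, a transmembrane chain known from the neuromuscular junction, had an end peak (chromosome 6, 11724751) at 3.97-, 3.15- and 4.41-fold in FL and at 3.41-fold in LL replicate 1. COL8A1 had an end peak in 4 libraries and COL23A1, a further transmembrane chain, in 5.

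Counted over the family, 4 of 41 genes (9.76%) had an end peak in at least 2 more FL than LL libraries, against 6.21% of all coding genes. These were COL4A4, COL6A2, COL11A1 and COL13A1, each with the 3 FL libraries plus LL replicate 1. No collagen gene had at least 2 more LL libraries, a rule that 1.08% of coding genes passed, and none had all FL and no LL libraries, against 0.275%. LL replicates 2 and 3 have 23316 and 15628 peaks, and the part of list length in the 4 genes was not tested. At equal lengths the count was also 4 genes, against 5.6% of coding genes, but the genes were COL1A2, COL6A2, COL11A1 and COL23A1, and 0 genes had at least 2 more LL libraries, against 1.52%. At COL1A2 the peaks kept were those of FL replicates 2 and 3, with summits at -924 and -1029 bp from the gene end. The width of a list's shortest peak, in bp, was 146, 124 and 112 for the FL birds and 166, 170 and 178 for the LL birds. With peaks under 178 bp left out of each list, COL11A1 was the 1 gene with at least 2 more FL libraries, against 3.3% of coding genes, and COL3A1 the 1 with at least 2 more LL libraries, against 2.16%.

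A smaller share of collagen ends than of all coding gene ends had another gene's end close by. Of the 82 ends, 26 (31.7%) had an end of another coding gene within 2 kb, against 42.7% of all coding gene ends. Of the 7 ends occupied in all 6 libraries, 5 were of this kind, which is 19.2% of the 26 shared ends, and 2 of the 56 private ends (3.57%), those of COL4A2 and COL19A1, were occupied in all 6. Over all coding genes, 24.4% of shared and 14.2% of private ends were occupied in all 6 libraries. Private collagen ends were occupied at 39.3%, 19.6% and 25% in FL and 46.4%, 12.5% and 7.14% in LL, against 34.5%, 26.0% and 23.8% and then 38.3%, 21.0% and 17.5% for all private ends. At equal lengths they were occupied at 5.36%, 12.5% and 17.9% in FL and 3.57%, 5.36% and 7.14% in LL. All private ends then stood between 17.4% and 21.1%, so FL replicate 3 came nearest to the level of all coding genes.

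**Figure D4:**
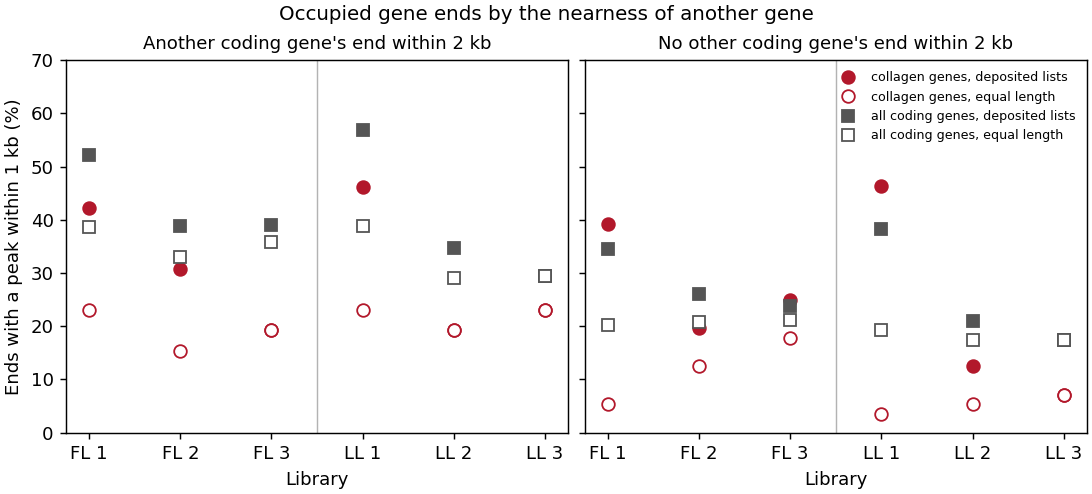
Share of gene ends with a peak within 1 kb (y axis, %) by library (x axis), for ends with another coding gene's end within 2 kb (left) and without (right), with collagen genes as circles, all coding genes as squares and equal lengths as open symbols. At equal lengths the private collagen ends lie between 3.57% and 17.9%, below all private ends in each library.

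Inside the collagen genes the density of regions was below that of coding genes at large in each library. A region here is a stretch covered by overlapping peaks of any of the 6 libraries, occupied in a library if that library has a peak in it. The collagen genes held 171, 67 and 48 occupied regions inside them in FL and 249, 49 and 24 in LL. Per 100 kb of gene this was 4.71, 1.84 and 1.32 in FL and 6.86, 1.35 and 0.661 in LL, against 4.96, 2.03 and 1.46 in FL and 6.95, 1.70 and 1.03 in LL for all coding genes. The lines overlapped, with a mean density of 2.62 ± 1.82 (SD, n = 3) for FL and 2.95 ± 3.40 (SD, n = 3) for LL. At equal lengths it was 0.661, 0.661 and 0.606 in FL and 0.633, 0.798 and 0.661 in LL, against 0.853 to 1.09 for all coding genes, and the ratio of collagen to all coding genes was 0.606 to 0.774 there.

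**Figure D5:**
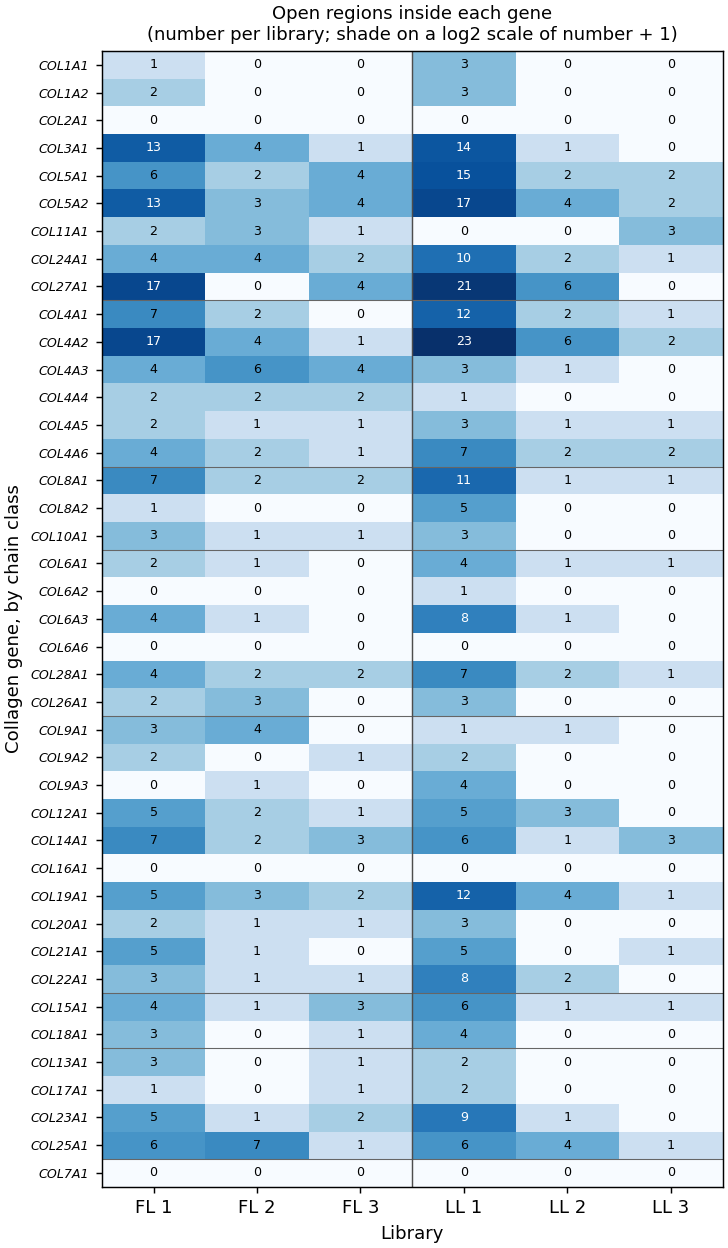
Number of occupied regions inside each collagen gene (rows, by chain class) in each library (columns), with the shade on a log2 scale of the number plus 1. COL4A2, with 17, 4 and 1 in FL and 23, 6 and 2 in LL, has the highest mean over the 6 libraries but not the highest number in FL replicates 2 and 3 or LL replicate 3, and COL2A1, COL6A6, COL7A1 and COL16A1 hold no region.

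Around each gene, regions were counted within 50 kb and away from any coding gene's end, including those inside neighbouring genes. The number was divided by the full length of the flanks, so sequence near other genes' ends stayed in the divisor. Flanks that overlap were counted for each gene. The region in COL4A2 at 138929004 to 138929802, for example, lies in the flank of COL4A1. The density around collagen genes was 5.71, 1.63 and 1.17 per 100 kb in FL and 7.63, 1.59 and 0.805 in LL. Coding genes at large had 4.50, 1.63 and 1.33 in FL and 6.4, 1.53 and 0.973 in LL. By this measure the flanks of collagen genes were denser than those of coding genes at large in both of the longest lists, and less dense in FL replicate 3 and LL replicate 3. At equal lengths the collagen values were 0.902, 0.707 and 0.488 in FL and 0.927, 1.05 and 0.805 in LL, and those of all coding genes 0.914, 0.821 and 0.868 in FL and 0.992, 1.02 and 0.986 in LL. The collagen flanks were then denser in LL replicate 2 and less dense in the other 5 libraries. The lines overlapped here too, with means of 2.84 ± 2.5 (SD, n = 3) for FL and 3.34 ± 3.74 (SD, n = 3) for LL.

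Of 779 regions within 50 kb of or inside a collagen gene, 63 (8.09%) were occupied in all 6 libraries, against 7.59% of all 100148 regions, and 442 (56.7%) were found only in FL replicate 1, LL replicate 1 or both, against 50% of all. Of the kinds of region at these loci, those at another gene's end in the flanks were the most widely shared: 36 of 94 (38.3%) were occupied in all 6 libraries. The share over regions at all coding gene ends was not counted, so this is not read as a trait of collagen flanks. Of the 330 regions inside collagen genes, 9 (2.73%) were, against 3.66% of the regions inside all coding genes.

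Few regions separated the lines fully. One, inside COL4A3 (chromosome 9, 9063001 to 9063344), had a peak in each FL library and in no LL library, which is 0.128% of the 779 regions against 0.209% of all regions. Its peaks were weak, at 2.38-, 3.39- and 4.65-fold and between the top 71.1% and the top 99.4% of their lists. The reverse pattern, 3 LL and 0 FL libraries, was found at 2 regions (0.257%, against 0.0849% of all). The first, inside COL4A1 (chromosome 1, 138899098 to 138899674), had 10.7-fold in LL replicate 1, within the top 5.68%, but 3.05- and 2.53-fold in LL replicates 2 and 3. The other lay 23745 bp beyond COL6A6 (chromosome 2, 41521809 to 41522311) and had 3.43-, 2.78- and 2.69-fold in LL.

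The number of occupied regions at and around each gene was compared between the lines by an exact two-sided permutation test over the 20 assignments of libraries to lines, whose smallest p is 0.1. No coding gene, collagen or other, therefore had an unadjusted p under 0.05, and the lowest adjusted p over the 17839 genes was 1. For no collagen gene did the numbers of the lines fail to overlap, against 0.874% of coding genes with FL higher and 0.0897% with LL higher. At equal lengths 2 collagen genes (4.88%, against 2.33% of coding genes) had FL above LL without overlap. COL28A1 had 8, 6 and 6 regions in FL and 5, 4 and 4 in LL (exact permutation p = 0.1, adjusted p = 1), and COL9A3 had 3, 3 and 3 in FL and 2, 2 and 2 in LL (exact permutation p = 0.1, adjusted p = 1). This number also counts regions at the ends of other genes. COL9A3 had no end peak and, at equal lengths, no region inside it. The widely shared regions around it, starting at 8665685, 8671182 and 8721517 on chromosome 20, all lay at another gene's end. No collagen gene had LL above FL, against 2.58%.

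Among genes that process, bind or break down collagen, a larger share had an end peak than among the chains in each library. Of 56 such genes listed, 49 were in the table, and 40, 23 and 25 of them had an end peak in FL and 43, 26 and 14 in LL. These are 81.6%, 46.9% and 51.0% in FL and 87.8%, 53.1% and 28.6% in LL. The shares of all coding genes (56.6%, 54.7% and 41.5%) were higher than these in FL replicates 2 and 3 and in LL replicate 3. At equal lengths 20, 21 and 22 of the 49 had an end peak in FL and 20, 18 and 14 in LL. All coding genes then stood at 50.5%, 47.9% and 50.1% in FL and 49.3%, 41.3% and 41.5% in LL, a larger share in each library. An end peak in all 6 libraries was found at 10 of the 49, while 35.7% of coding genes had one: P4HA1 and P4HB, the subunits of prolyl 4-hydroxylase, PLOD1, a lysyl hydroxylase, MIA3, which loads procollagen for export, LOXL3, a cross-linking oxidase, ITGA1 and DDR2, both collagen receptors, MMP16, a membrane-bound metalloproteinase, FAP, a protease of fibroblasts that cuts denatured collagen, and TIMP3, an inhibitor of metalloproteinases. FAP had the median top 2.83% and MMP16 the median top 6.18% of the lists, whereas the best median of a collagen end was that of COL24A1, at the top 6.62%.

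By step of the pathway, the shares differed. Of the 14 genes of chain folding and modification, 14, 10 and 11 had an end peak in FL and 14, 12 and 7 in LL. Of the 8 genes for propeptide removal, 6, 3 and 0 had one in FL and 6, 2 and 0 in LL. The 7 receptors had 6, 5 and 5 in FL and 7, 3 and 3 in LL, and the 9 genes of collagen breakdown had 5, 3 and 4 in FL and 6, 4 and 3 in LL. The 5 cross-linking genes had 4, 1 and 4 in FL and 4, 3 and 1 in LL, and the 6 partners of fibrils had 5, 1 and 1 in FL and 6, 2 and 0 in LL. DDR1, a further receptor, was the 1 gene of the 49 with at least 2 more FL libraries, against 6.21% of coding genes, occupied in the 3 FL libraries plus LL replicate 1, and no gene had at least 2 more LL libraries, against 1.08%.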

How the data were processed

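Per the labels' protocols, nuclei of abdominal fat were cut with Tn5 and the amplified fragments were sequenced. MACS3 3.0.0b1, bedtools 2.30.0, BWA, SAMtools, Trim Galore and FastQC, with the build GRCg7b, are named in the submitters' processing notes. No source used here gives caller settings, duplicate removal or any Tn5 shift. Peaks were deposited per library, not pooled. For each peak the authors' lists give a score, a fold enrichment (a ratio), −log10 p, −log10 q and a summit. The lists give no read counts, so the local background of each peak was solved from the deposited fold and −log10 p within a relative tolerance of 0.001. The 0.001 quantile of this background over the peaks was 8.26, 4.90 and 2.23 fragments in FL and 8.10, 5.80 and 8.73 in LL. It is not a read depth and did not follow list length, being highest in LL replicate 3, which has the shortest list. The lowest −log10 q was 2.01 to 2.03.

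Peaks overlapping by at least 1 bp were merged into 100148 regions. A gene end was occupied if a peak reached within 1 kb of it. Inside regions lay in the gene, and distal regions lay outside it, within 50 kb and outside every coding gene's end window. Distal regions could lie inside another gene. Gene positions came from a RefSeq table of GRCg7b without strand or exons. Samples were grouped by their labels (3 FL, 3 LL). Values over the family were described without a test. Single genes were compared by exact permutation, with Benjamini-Hochberg adjustment over 17839 genes. Simulated lists with planted gene ends were used to check the finding of occupied ends, not the permutation or the adjustment. The members and gene lists were chosen with earlier results of these data known.

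Genes were named as follows. The main chains of fat and its vessels were always named, as were members with an end peak in all libraries or none, members called by a difference between lines, the 5 with most inside regions, the 3 with the best median end rank and those nearest to line-only regions. Others named were chosen after their values were seen. Alternatives covered the −log10 q minimum, equal list lengths, peak width, windows, overlap and left-out libraries. Python 3.11.15, numpy 2.4.6, pandas 2.3.3 and scipy 1.17.1 were used.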

Additional observations from a re-analysis of the deposited data

How the results depend on the processing

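The lists carry no read counts, so every value rests on calls of presence or absence. Leaving out 1 library at a time, the FL minus LL difference in the share of collagen genes with an end peak (11.4 points) ranged from 2.44 to 28.0, that in inside density (-0.330 per 100 kb) from -1.48 to 1.66 and that in distal density (-0.504) from -1.94 to 1.74. Each moved by less than the spread between libraries, 23.0 points for the share, but 28.0, without LL replicate 1, is itself above that spread, and both densities changed sign. Without FL replicate 1 and LL replicate 1 together they were 19.5, 0.606 and 0.244. The 4 genes with at least 2 more FL libraries became 1 with peaks under 178 bp left out, and 0 to 12 with 1 library left out, the 12 without LL replicate 1. The 0 genes with at least 2 more LL libraries became 1 with that width minimum, 1 with a 2 kb window, and 0 to 1 with 1 library left out. Genes whose region numbers were higher in FL without overlap went from 0 to 2 at equal lengths, 1 with a distal window of 25 kb, 0 to 12 with 1 library left out and 13 without both replicates 1. The matching number for LL was 0 to 0 with 1 library left out. Regions in all FL and no LL libraries went from 1 to 0 at a −log10 q of at least 5, 3 at equal lengths, 0 with the width minimum, 0 where a peak had to cover 0.5 of the region or lie by 0.5 in its widest peak, 1 to 19 with 1 library left out and 29 without both. Regions in all LL and no FL libraries went from 2 to 0 at a −log10 q of at least 5, 2 to 13 with 1 library left out, and 13 without both. Genes with an end peak in every library were 7, 4 with a 500 bp window and 7 to 9 with 1 library left out. Genes with none were 10, 22 at equal lengths, 6 with a 2 kb window, 18 without both and 10 to 11 with 1 left out. Some changes follow from the rules. The 4 genes had the 3 FL libraries plus LL replicate 1, so leaving out any FL library took them below a difference of 2. Rules that need all libraries of a line, or no overlap between the lines, are easier to meet with fewer libraries. Apart from the shares stated in the Results, those of all coding genes or all regions under these settings are not given here. The changed counts are therefore not read as results about collagen genes. The cause of the other changes was not tested. The counts of genes with an end peak in every library and in none were alternatives chosen after seeing the data. The replicate numbers are shared by the lines, but deviations of same-numbered libraries correlated at 0.634, 0.220 and -0.0179, so the numbers were not taken as pairs. With the replicate block, 3 genes were higher in FL in all 3 pairs (3.52% of coding genes were) and 2 in LL (4.88%, against 5.57% of coding genes). The alternative of using the start of genes alone was not run, since the table used here has no strand.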
